A study of Homo sapiens with 4 samples.

Results

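Metallothioneins are small cysteine-rich proteins that bind zinc, copper and cadmium. The 10 genes described here, MT1A, MT1B, MT1E, MT1F, MT1G, MT1H, MT1M, MT1X, MT2A and MT3, were taken as a named family, and their probes were found through the RefSeq accession that the array design gives each probe. They had 12 probes among 50594, and 10 of these 12 probes, from 8 of the 10 genes, exceeded background clearly on all 4 arrays, as did 19808 probes in all. MT1G passed on 1 array and MT1H on none.

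RNA came from HCT116, a human colon carcinoma line, which had been split in a transwell chamber into MG cells, which crossed the membrane, and non-MG cells, which stayed above it. Both subpopulations had been enriched by repeated rounds of the same assay and were then exposed for 48 h to vehicle or to 5-azacytidine at 5 µM, a cytidine analogue that inhibits DNA methyltransferases. Each of the 4 conditions has 1 one-colour array, so no test between conditions was possible, and each subpopulation is 1 isolate of 1 line. In such bulk RNA, fewer cells that express a gene and less RNA per cell cannot be told apart.

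The MT1 and MT2A genes lie in a cluster on chromosome 16 and are expressed in many tissues, whereas MT3 is known mainly from the nervous system. Their transcription is raised by zinc and other metals through MTF1, a zinc finger factor that binds metal response elements in their promoters, and also by glucocorticoids and by oxidative stress. Methylation of metallothionein promoters, MT1G and MT1M among them, has been described in carcinomas. The proteins buffer free zinc, so their mRNA is often read as a sign of the zinc supply of a cell.

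Promoters are shown for every member whose sequence was at hand, whatever its expression. Among these members, MT1B, MT1X and MT2A were lower in MG cells with vehicle, and MT1H did not rise above background. Promoters of MT1E and MT1M, which differed little between the vehicle arrays, were not at hand. Whether the promoter letters go with the differences in expression was therefore not tested. RefSeq promoter sequences of GRCh38.p14 were at hand for 4 of the 10 genes, and the 250 bases before the transcription start are given 5′ to 3′ on the plus strand for MT1B (chr16:56651636-56651885), MT1H (chr16:56669564-56669813), MT1X (chr16:56682220-56682469) and MT2A (chr16:56608334-56608583). Capitals mark the core of the metal response element, searched as TGCACNC and TGCGCNC on both strands.
MT1B: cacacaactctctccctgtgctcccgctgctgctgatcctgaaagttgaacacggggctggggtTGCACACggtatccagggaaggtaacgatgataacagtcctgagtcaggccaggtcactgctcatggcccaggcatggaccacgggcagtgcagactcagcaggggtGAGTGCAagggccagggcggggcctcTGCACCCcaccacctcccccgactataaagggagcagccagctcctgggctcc
MT1H: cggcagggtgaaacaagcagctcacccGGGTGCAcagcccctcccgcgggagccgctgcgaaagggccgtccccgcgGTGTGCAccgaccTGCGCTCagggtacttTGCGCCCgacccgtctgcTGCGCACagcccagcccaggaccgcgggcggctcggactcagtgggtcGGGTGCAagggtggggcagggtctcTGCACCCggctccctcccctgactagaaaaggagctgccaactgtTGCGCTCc
MT1X: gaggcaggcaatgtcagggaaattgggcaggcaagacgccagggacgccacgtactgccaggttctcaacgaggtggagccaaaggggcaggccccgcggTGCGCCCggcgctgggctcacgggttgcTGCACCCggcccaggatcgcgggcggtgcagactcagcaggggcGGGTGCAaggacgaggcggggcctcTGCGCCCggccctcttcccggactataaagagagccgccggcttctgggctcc
MT2A: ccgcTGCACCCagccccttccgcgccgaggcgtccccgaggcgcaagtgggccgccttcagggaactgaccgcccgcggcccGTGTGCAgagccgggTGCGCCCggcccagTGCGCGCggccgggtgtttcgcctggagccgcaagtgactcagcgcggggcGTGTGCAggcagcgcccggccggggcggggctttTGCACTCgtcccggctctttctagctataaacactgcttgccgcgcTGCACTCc

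Counted over 300 bases, from 250 before the start to 50 after it, the core was found 3 times in MT1B, 4 times in MT1X and 8 times each in MT1H and MT2A, where 1 of the 8 in MT2A lies after the start and is not among the bases printed. Of 35116 human promoters of this length, 29.6% held at least 1 core, 2.3% held 3 or more, 0.601% held 4 or more and 0.0199% held 8 or more. With positions counted from -1 for the base before the start, all 4 promoters held a core on the minus strand between -88 and -72 and one on the plus strand between -54 and -47. The letters TATAAA began at -30 in MT1B and MT1X and at -29 in MT2A, and were not found in this window of MT1H, compared with 7.33% of all promoters that hold them. The promoters differed more in CpG content, with 7 CpG sites in MT1B, 25 in MT1H, 26 in MT1X and 37 in MT2A. The median of all promoters was 14, and 11.3% had as many as MT2A. A match describes the letters alone, and neither binding nor methylation was measured here.

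**Figure D1:**
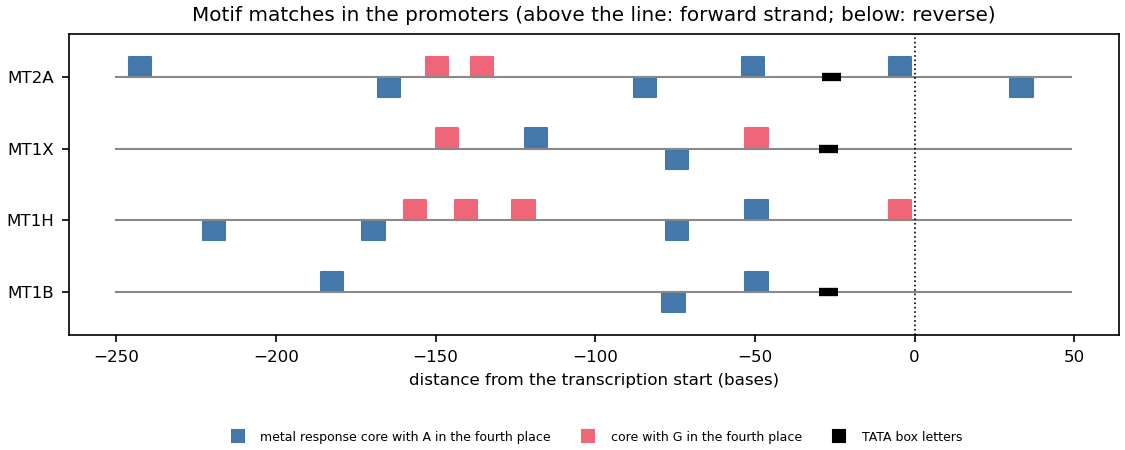
Matches to the metal response element core and to TATAAA in the promoters of MT1B, MT1H, MT1X and MT2A (rows), against the distance from the transcription start in bases, with plus strand matches above each line and minus strand matches below it. All 4 promoters share a pair of cores between -88 and -47, and MT1H and MT2A hold 8 cores each.

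Levels are given as the background-corrected intensity of a probe and as its log2 minus the 75th percentile of its array, called the log2 level. They can be followed for 1 probe across arrays and not between probes. A ratio is a difference of log2 levels, and its error is the spot error, the SD between repeated spots of like brightness, which was 0.05 for single spots above a log2 intensity of 11 and covers spotting and scanning only. A probe was counted as higher or lower past 1.5-fold, a log2 ratio of 0.585. The 75th percentile of intensity was 75.2 to 98.7, between 21382 and 21881 probes were well above background per array, and no spot was saturated. All arrays lay on 1 slide, with non-MG cells in slide row 1 and MG cells in row 2, and with vehicle in column 3 and 5-azacytidine in column 4, so slide position and condition cannot be told apart. Of 10 markers of colon epithelium, 7 were detected on every array, among them EPCAM and the simple keratins, and CDH17, LGALS4 and VIL1 were above background on none. Of 11 markers of leukocytes, endothelium and fibroblasts, 7 (CD3E, CDH5, COL3A1, DCN, PDGFRB, PECAM1 and PTPRC) were above background on no array.

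With vehicle, MT1B, MT1X and MT2A were lower in MG cells past 1.5-fold, and no metallothionein was higher. The MT1B probe read 16074 in non-MG cells with vehicle, 11469 in non-MG cells with 5-azacytidine, 8825 in MG cells with vehicle and 12068 in MG cells with 5-azacytidine. Its log2 levels were 7.53, 7.25, 6.48 and 6.97 in this order, so that MG cells with vehicle stood lowest and both non-MG arrays were above both MG arrays. With vehicle, the log2 ratio of MG to non-MG cells was -1.05 ± 0.07 (spot error, 1 array each), a 2.07-fold difference. No other metallothionein probe measured on all arrays passed 2-fold in any comparison.

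MT2A, which most tissues express, read 38249 with vehicle and 36010 with 5-azacytidine in the non-MG cells, and 22972 and 36533 in the MG cells. The log2 levels were 8.78, 8.90, 7.86 and 8.57, so both non-MG arrays were above both MG arrays and MG cells with vehicle stood lowest. MG cells with 5-azacytidine were 0.21 below non-MG cells with vehicle, a gap beyond 2 spot errors. The ratio of MG to non-MG cells with vehicle was -0.92 ± 0.07, a 1.89-fold difference.

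MT1X had a pair of probes. Probe A_33_P3350056 read 8784 and 5577 in the non-MG cells and 5175 and 5570 in the MG cells, with log2 levels of 6.66, 6.21, 5.71 and 5.85. Both non-MG arrays were above both MG arrays, and the ratio with vehicle was -0.94 ± 0.07, or 1.92-fold. Probe A_33_P3236868 of the same gene read 1095 and 804 in the non-MG cells and 907 and 889 in the MG cells, and its ratio of -0.45 ± 0.08 was within 1.5-fold. The pair had the same sign and differed by 0.49 ± 0.10, so the size of the MT1X difference depends on the probe.

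The calls at MT1B, MT1X and MT2A are 3 of 10 probes lower and 0 higher, compared with 8.27% of all 19808 probes lower and 6.08% higher past 1.5-fold. Because 7 of the 10 probes were bright, the same counts were made over the 3640 probes with a mean log2 intensity of at least 10, a limit chosen after the values were seen. Of these, 3.63% were lower and 4.7% were higher, and all 3 calls were among the 7 bright metallothionein probes. The median log2 ratio of the 10 probes was -0.47, compared with -0.0069 over all probes, and 8 of the 10 were below 0. Among bright probes the medians were -0.54 and 0.04.

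**Figure D2:**
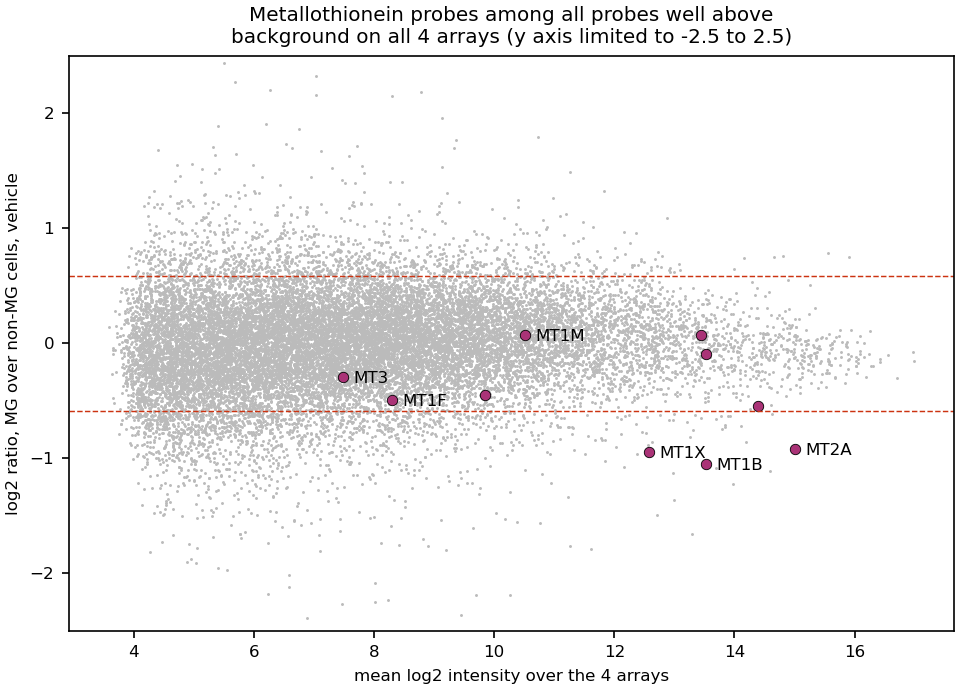
Log2 ratio of MG to non-MG cells on the vehicle arrays against the mean log2 intensity over the 4 arrays, for all 19808 probes well above background (grey) and the 10 metallothionein probes (purple), with dashed lines at 1.5-fold. MT1B, MT1X and MT2A lie below the lower line at intensities where few other probes do.

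The other members were within 1.5-fold between the vehicle arrays, and they fell into those with a negative ratio and those near 0. MT1A read 26126, 19270, 20356 and 20748 in non-MG cells with vehicle and with 5-azacytidine and in MG cells with vehicle and with 5-azacytidine. Its ratio of -0.54 ± 0.07 came closest to the 1.5-fold limit. MT1F read 399, 262, 322 and 296 in the same order and had a ratio of -0.49 ± 0.09. Both genes were highest in non-MG cells with vehicle.

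MT1E and MT1M were lowest in non-MG cells with 5-azacytidine. The MT1E probe A_21_P0000671 read 10939, 8105, 13051 and 13319, and probe A_23_P206724 read 12225, 9444, 12960 and 13250. Their ratios with vehicle were 0.07 ± 0.07 and -0.10 ± 0.07, neither beyond 2 spot errors. MT1M read 1423, 1115, 1700 and 1658 and had a ratio of 0.08 ± 0.07. All of the log2 levels of MT1M lay within 0.22 of each other, the narrowest range of the family apart from 0.16 at the second MT1E probe.

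MT3, the member known from the nervous system, read 166 and 207 in the non-MG cells and 154 and 191 in the MG cells. Its log2 levels were 0.93, 1.46, 0.64 and 0.99, and the treated array was above the vehicle array in both subpopulations. Between the vehicle arrays its ratio of MG to non-MG cells was -0.30 ± 0.10.

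**Figure D3:**
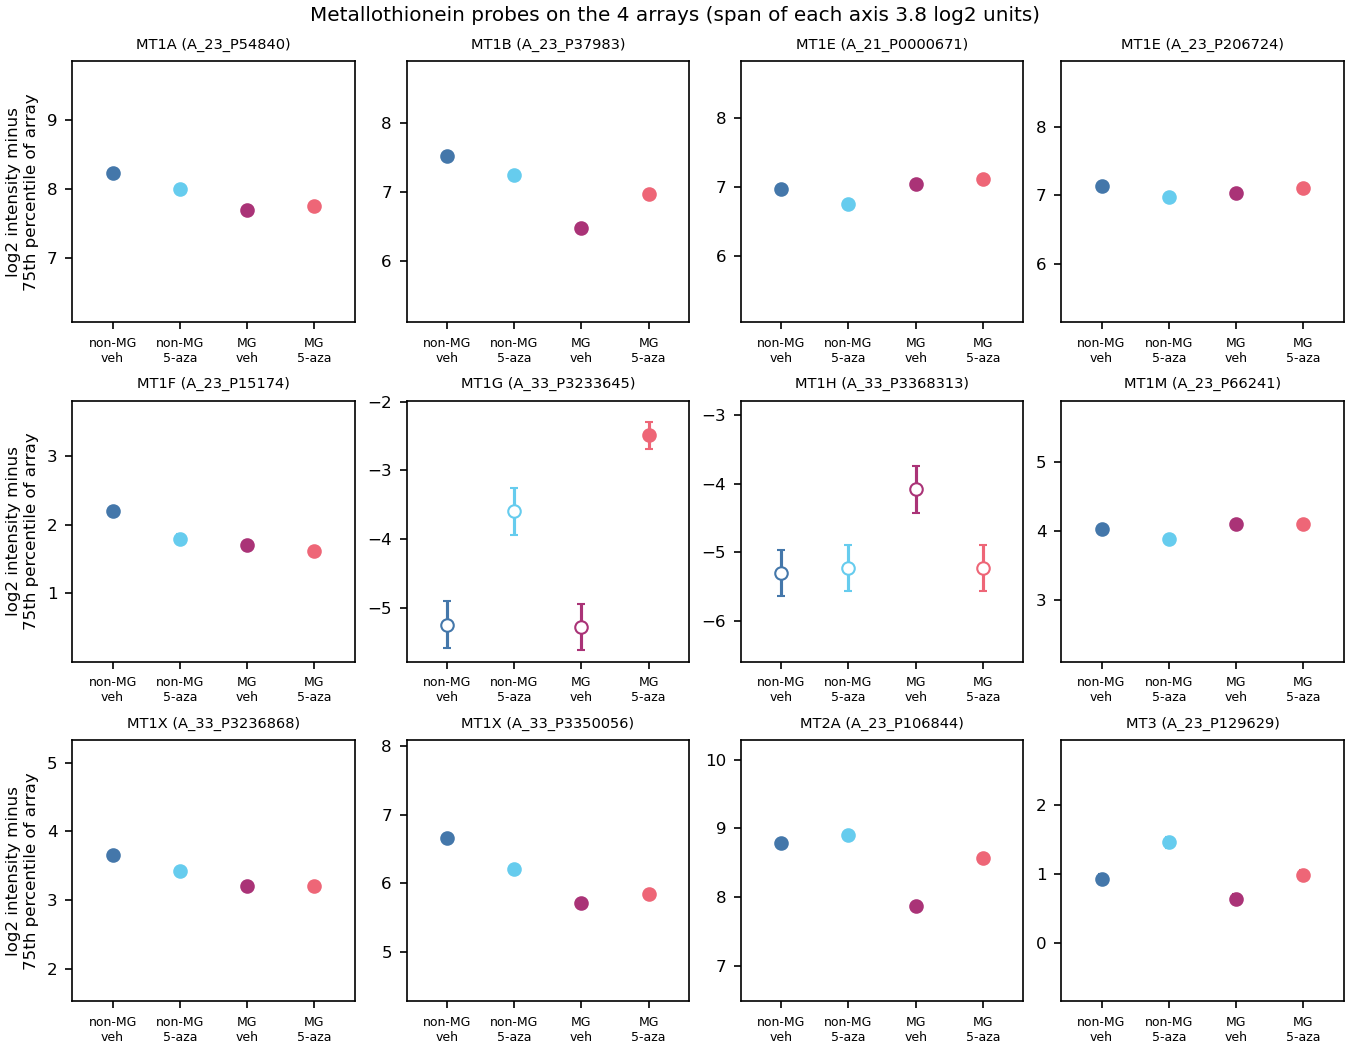
Log2 intensity minus the 75th percentile of the array (vertical axis, each panel spanning 3.8 log2 units) on the 4 arrays (horizontal axis) for the 12 metallothionein probes. Bars are the spot error, open circles are readings not well above background, and MT1B, MT2A and MT1X show MG cells with vehicle lowest.

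Adjacent arrays in the order of levels were often not separable. Of the 30 gaps between neighbours in that order, 15 were within 2 spot errors. MT1B was the one probe with every gap beyond them. For MT2A, both non-MG arrays were within 2 spot errors of each other, and for MT1A and both MT1X probes both MG arrays were.

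With 5-azacytidine, no metallothionein probe differed past 1.5-fold between MG and non-MG cells, compared with 6.21% of all probes higher and 7.24% lower, and 4.15% and 2.28% of the bright ones. The ratios were -0.29 for MT1B, -0.34 for MT2A, -0.36 and -0.21 for the MT1X probes and -0.25 for MT1A, each with an error of 0.07 or 0.08. The largest in size was -0.47 ± 0.10 at MT3, and the highest was 0.36 ± 0.07 at MT1E probe A_21_P0000671. The median was -0.23, compared with 0.02 over all probes. Under median centring of the arrays the metallothionein median became 0.024, and that of all probes 0.28, so the sign of this median depends on the scaling. With normexp background correction the medians were -0.065 and 0.03, a smaller distance than in the main setting.

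In the MG cells, MT2A was higher with 5-azacytidine than with vehicle past 1.5-fold, and no other member measured on all arrays was. The MT2A intensity went from 22972 to 36533, a log2 ratio of 0.70 ± 0.07 or 1.63-fold, which brought it within 0.21 of the level in non-MG cells with vehicle. Higher past 1.5-fold were 3.09% of all probes and 0.522% of the bright ones, and 2.2% and 0.632% were lower. MT1B had a ratio of 0.48 ± 0.07 and MT3 of 0.35 ± 0.10. The other probes lay between -0.09 and 0.14, each within 2 spot errors of 0. The median of the 10 probes was 0.06, compared with -0.02 over all probes.

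In the non-MG cells, 5-azacytidine moved no metallothionein probe past 1.5-fold, compared with 1.94% of all probes higher and 1.89% lower, and 0.192% and 0.522% of the bright ones. MT3 had the highest ratio at 0.53 ± 0.10, followed by MT2A at 0.12 ± 0.07. The other 8 probes were below 0, from -0.14 ± 0.07 at MT1M to -0.40 ± 0.09 at MT1F and -0.44 ± 0.07 at MT1X probe A_33_P3350056. The median was -0.22, compared with -0.04 over all probes.

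**Figure D4:**
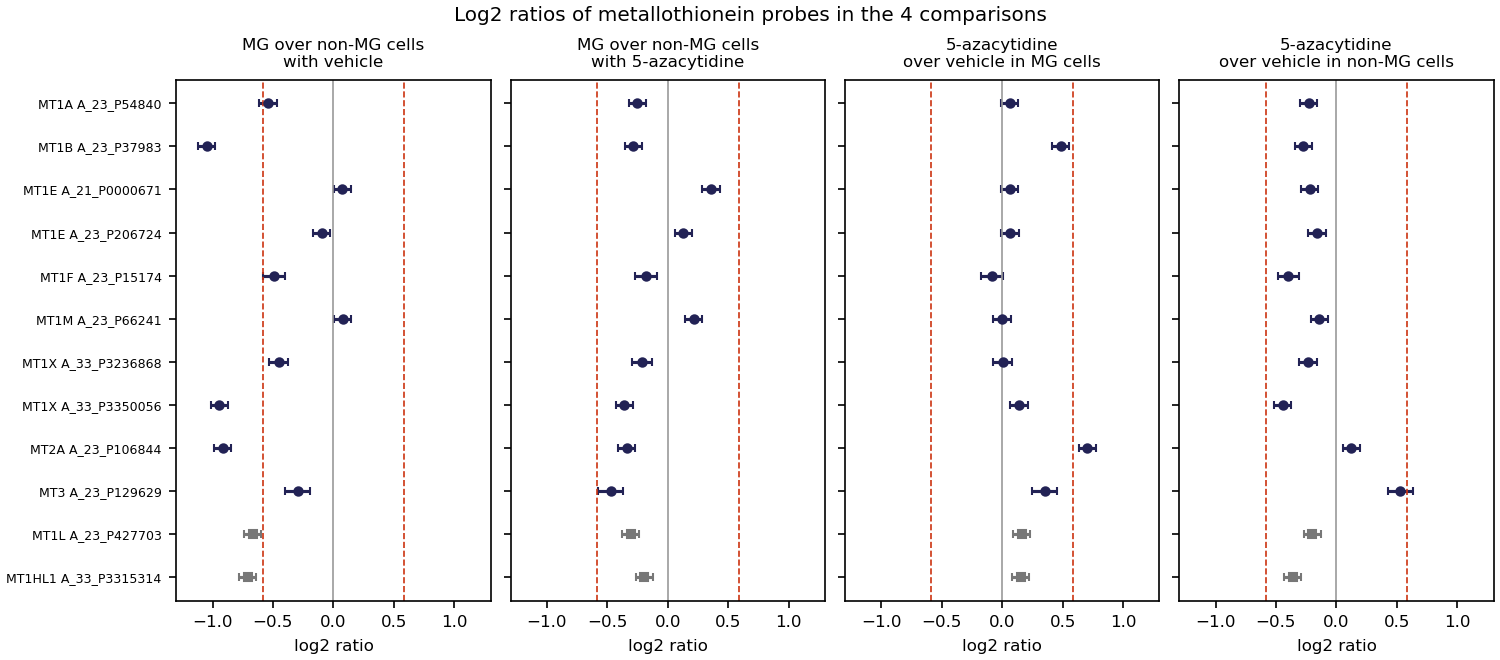
Log2 ratios of the 10 metallothionein probes measured on all arrays (circles) and of MT1L and MT1HL1 (grey squares) in the 4 comparisons, with spot errors as bars and dashed lines at 1.5-fold. MT1B, MT1X and MT2A pass the lower line with vehicle, and MT2A passes the upper line in treated MG cells.

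For 9 of the 10 probes the response to 5-azacytidine, as a log2 ratio over vehicle, was higher in MG cells. The difference of responses was 0.76 ± 0.10 at MT1B, which alone passed 1.5-fold, 0.58 ± 0.10 at both MT2A and MT1X probe A_33_P3350056, and between 0.14 and 0.31 at 6 further probes. MT3 had a difference of -0.18 ± 0.15. Past 1.5-fold were 3.78% of all probes with a higher and 2.82% with a lower response in MG cells, and 1.18% and 0.907% of the bright ones. The median was 0.29, compared with 0.02 over all probes. This difference uses the same 4 readings as the comparisons above, and without replicates it was not tested.

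**Figure D5:**
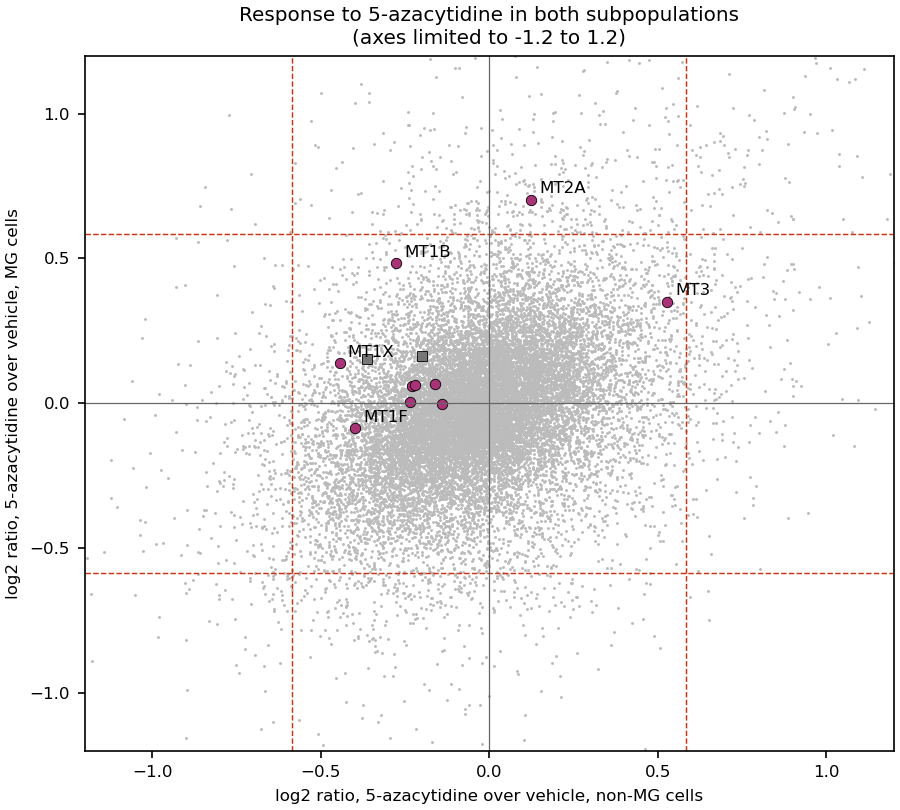
Log2 ratio of 5-azacytidine over vehicle in MG cells (vertical) against that in non-MG cells (horizontal), for the 10 metallothionein probes (purple), MT1L and MT1HL1 (grey squares) and all probes well above background on all arrays (light grey), with dashed lines at 1.5-fold. MT1B lies at 0.48 and -0.28, and most of the family lies left of 0 and close to 0 on the vertical axis.

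MT1G has only bounds, and MT1H not even these. MT1G, whose silencing by methylation is known from several carcinomas, read 2.29 and 6.21 in the non-MG cells and 2.54 and 17.2 in the MG cells, and only the reading of 17.2 in MG cells with 5-azacytidine was well above background. It was therefore at least 1.53-fold higher there than in MG cells with vehicle and at least 1.35-fold higher than in treated non-MG cells, set against the lowest intensity well above background, which was 9.95 to 11.8. MT1H reached 5.82 at most, in MG cells with vehicle, stayed near background on all 4 arrays and allows no ratio.

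Genes that resemble the members were on the array as well. Of 11 relatives and pseudogenes, 5 had a probe, and MT1L and MT1HL1 were measured on all arrays. MT1L read 9975, 7504, 7117 and 7785, and MT1HL1 19051, 12798, 13210 and 14359. Both were lower in MG cells with vehicle, by ratios of -0.67 ± 0.07 and -0.71 ± 0.07, and within 1.5-fold in the other comparisons. MT1DP read 17.5, 16.7 and 17.4 on the first 3 arrays and 12.2, not well above background, in treated MG cells, while MT4 and MT1IP were above background on none. The mRNAs of the MT1 genes are close in sequence and the files hold no probe sequences, so which transcripts each MT1 probe reads was not examined. The values of any MT1 probes, those of MT1L and MT1HL1 included, may therefore share signal. Counts of probes, which also hold a pair each for MT1E and MT1X, may then count a transcript more than once.

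Of the zinc response itself, the factor MTF1 read 178, 145, 189 and 198, and its ratios were between -0.10 and 0.10 with an error of 0.10. SLC30A1, an exporter of zinc and itself a target of MTF1, read 112, 96.6, 106 and 132, with ratios of -0.27 ± 0.12 between the vehicle arrays and 0.35 ± 0.11 for 5-azacytidine in MG cells. Both of these SLC30A1 ratios were beyond 2 spot errors and had the same sign as those of MT2A. Its other ratios were 0.09 ± 0.11 between the treated arrays and -0.01 ± 0.12 for 5-azacytidine in non-MG cells. These were within 2 spot errors of 0 and opposite in sign to those of MT2A (-0.34 and 0.12). Neither MTF1 nor SLC30A1 passed 1.5-fold in any comparison.

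Of 7 measured probes of the SLC30 zinc exporters, none passed 1.5-fold in any comparison. Depending on the comparison, 1.89% to 8.27% of all probes passed it in a given direction. Among 11 probes of the SLC39 zinc importers, only that of SLC39A7, which releases zinc from the endoplasmic reticulum, passed 1.5-fold. It read 871, 438, 939 and 1012, was lower in treated than in untreated non-MG cells (-0.78 ± 0.09) and was accordingly higher in MG than in non-MG cells with 5-azacytidine (0.85 ± 0.09). Both values rest on the same low reading. Of all probes, 1.89% were lower in the first of these comparisons and 6.21% higher in the second.

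Of the 18 probes for copper handling, ATOX1, a copper chaperone, was higher in MG cells with vehicle (0.80 ± 0.07) and with 5-azacytidine (0.75 ± 0.07). COX11, which delivers copper to cytochrome oxidase, was higher at 1 of its 3 probes with vehicle (0.68 ± 0.10) and at a different one with 5-azacytidine (0.84 ± 0.16). ATP7A, a copper-exporting ATPase, was lower at 1 of its 4 probes with vehicle (-0.62 ± 0.24) and at another with 5-azacytidine (-0.91 ± 0.24). Past 1.5-fold between MG and non-MG cells, 2 of the 18 probes were higher and 1 lower, with vehicle and with 5-azacytidine. Of all probes, 6.08% were higher and 8.27% lower with vehicle, and 6.21% and 7.24% with 5-azacytidine. None of the 18 passed 1.5-fold in response to 5-azacytidine, compared with 3.09% of all probes higher and 2.2% lower in MG cells. In non-MG cells these shares were 1.94% and 1.89%.

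Other routes to metallothionein transcription were covered by 3 lists. Of 11 probes of its regulators, both probes of STAT3 (-0.87 and -0.91) and that of SP1 (-0.73 ± 0.09) were lower in MG cells with vehicle. Lower past 1.5-fold there were 8.27% of all probes. KEAP1, which restrains the oxidative stress factor NFE2L2, was higher with vehicle (0.59 ± 0.03) and with 5-azacytidine (0.64 ± 0.03). Higher were 6.08% and 6.21% of all probes. Of 18 probes for the oxidative stress response, 1 passed 1.5-fold, that of the cystine transporter SLC7A11. It read 226 in non-MG and 676 in MG cells with vehicle, and 185 and 546 with 5-azacytidine. Higher past 1.5-fold in MG cells were 6.08% of all probes with vehicle and 6.21% with 5-azacytidine. Of 6 probes of glucocorticoid targets, 4 were lower in MG cells with vehicle, among them PER1 (-1.10 ± 0.09), KLF9 (-0.84 ± 0.09) and DUSP1 (-0.65 ± 0.04), compared with 8.27% of all probes, and the list had a median of -0.63. Between the treated arrays 3 of the 6 were lower, compared with 7.24% of all probes, and the median was -0.51. The 3 were KLF9 (-0.75 ± 0.09), PER1 (-0.71 ± 0.09) and TSC22D3, which was named after its values were seen. SGK1, a kinase of the same list, was higher with 5-azacytidine in both MG cells (1.21 ± 0.10) and non-MG cells (0.99 ± 0.11), whereas TSC22D3 was lower in both and PER1 was lower in non-MG cells (-0.63 ± 0.09). The medians of the list in response to 5-azacytidine were -0.13 in MG cells and -0.21 in non-MG cells.

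Heat shock proteins share inducers such as cadmium with the metallothioneins. With vehicle 4 of their 12 probes were higher in MG cells, compared with 6.08% of all probes, and none was lower, with HSPH1 at 0.88 and 1.05, HSPA8 at 0.73 and 1 of 3 HSP90AA1 probes at 0.65, the other two being at 0.15 and 0.21. The other probes of the list were within 1.5-fold, and its median was 0.23. With 5-azacytidine 3 of the 12 were higher, compared with 6.21% of all probes. In response to 5-azacytidine none passed 1.5-fold, compared with 3.09% of all probes higher in MG cells and 1.94% in non-MG cells.

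The genes beside the cluster on chromosome 16 had 9 measured probes and a median of 0.16 with vehicle. NUDT21, a factor of mRNA 3′ processing, was higher in MG cells at 1 of its 2 probes (0.67 ± 0.09), while the other gave -0.09. GNAO1, a G protein subunit close to background, had -0.64 ± 0.38. These were 1 of the 9 probes higher and 1 lower past 1.5-fold, compared with 6.08% and 8.27% of all probes. Between the treated arrays 2 of the 9 were higher in MG cells, compared with 6.21% of all probes. The 2 were the same NUDT21 probe (0.62 ± 0.09) and OGFOD1 (0.59 ± 0.09). None of the 9 passed 1.5-fold in response to 5-azacytidine, compared with 3.09% of all probes higher and 2.2% lower in MG cells. In non-MG cells these shares were 1.94% and 1.89%.

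Across the 4 arrays, the median of the centred log2 levels of the 10 probes was 0.27 in non-MG cells with vehicle, 0.07 in non-MG cells with 5-azacytidine, -0.20 in MG cells with vehicle and -0.05 in MG cells with 5-azacytidine. MT1X probe A_33_P3236868 followed this profile most closely of the members, with a root mean square difference of 0.06 over the 4 arrays, and MT2A least, with 0.28. The genes outside the family with the nearest profile were GLT8D2 (0.0216), LOC155060 (0.0228), SLC27A3 (0.0234), RASAL2 (0.0239) and KYAT3 (0.0248). Over 4 arrays many probes come this close, and the closest member ranked 157 among the named probes.

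Markers of other cell types were low throughout. The intensities of their 19 probes summed to 214 in non-MG cells with vehicle, 191 in non-MG cells with 5-azacytidine, 159 in MG cells with vehicle and 202 in MG cells with 5-azacytidine. This sum was lowest on the array where MT1B, MT1X and MT2A were lowest, and its part in those results was not tested. COL1A1 was lower in MG cells with vehicle (-0.92 ± 0.16), and CD14, close to background, read 13.5 with vehicle and 26.3 with 5-azacytidine in MG cells, and 17.1 and 27.1 in non-MG cells. VWF read 19.8 and 31.4 in MG cells, a log2 ratio of 0.70 ± 0.09, and 21.8 and 24.2 in non-MG cells. In the comparison where MT2A was higher past 1.5-fold, the list had a median of 0.70. Higher past 1.5-fold there were 2 of its 3 detected markers, CD14 and VWF, compared with 3.09% of all probes. With 5-azacytidine in non-MG cells CD14 was also higher (0.87 ± 0.28), compared with 1.94% of all probes, while MT2A had 0.12. The part of these markers in the MT2A result was not tested. Divided by the 75th percentile of each array, the sums were 2.46, 2.55, 1.61 and 2.09. For the 13 probes of colon epithelium markers, the sums divided in this way were 1371, 1360, 1292 and 1334 in the same order. These sums come mostly from keratins and were also lowest in MG cells with vehicle. Between the vehicle arrays, 1 of the 10 measured probes was lower past 1.5-fold in MG cells, that of CDH1 (-0.66 ± 0.03). A dim KRT8 probe, which read 23.6 in non-MG and 47.1 in MG cells, was higher (0.81 ± 0.24). Brighter KRT8 probes gave 0.16 and 0.03. The list had a median of 0.12. Among all probes 8.27% were lower and 6.08% higher. With 5-azacytidine KRT20 alone of the 10 was past 1.5-fold, higher in MG cells (1.85 ± 0.22) and non-MG cells (1.42 ± 0.35). Higher there were 3.09% and 1.94% of all probes, and KRT20 was dim with vehicle, at 19.4 and 14.6. The paper reports CDH1 mRNA as unchanged between MG and non-MG cells, on the array and by replicated qPCR relative to GAPDH. The ratio here rests on 1 array per condition and a 1.5-fold call, a different measure from that qPCR.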

How the data were processed

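RNA of 4 conditions of HCT116 cells was hybridized to 4 one-colour arrays, 1 per condition. RNA was extracted with RNAiso Plus per the labels, or with an RNeasy kit per the methods. Scanner output deposited by the authors was made with Agilent Feature Extraction 11.5.1.1, and its background-corrected intensity is linear and not normalized between arrays. They also deposited a table of log2 values centred on the median of each probe; for the 24161 probes compared, its differences between arrays equalled those of the scanner values, apart from a constant, to within 0.01.

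From the deposited intensity, log2 minus the 75th percentile of each array was computed over 50594 probes, after 5 probes flagged as outliers and the control spots were left out, and 30000 probes were named by accession through RefSeq. Ratios were taken for probes well above background on all 4 arrays. Readings below that give bounds only, set against the lowest intensity well above background on the array. Past 1.5-fold is a call, and the methods name no fold threshold. With 1 array per condition there is no test, and 4 arrays limit the precision. Spot error is the median SD between spots of probes spotted 10 times, by intensity.

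The genes named are all members, their relatives, up to 4 genes per list with the largest ratios, MTF1, SLC30A1 and the 5 nearest profiles. Members and lists were chosen with earlier results of these data known. Alternatives were normexp, quantile normalization, median centring, other filters on dim probes, the deposited table, other ways to count a gene, and thresholds of 1.4-fold and 2-fold. Counting was run on simulated arrays with spot noise only and with changes larger than 2-fold. That run does not bear on calls near 1.5-fold or on variation between arrays. Tools were limma 3.58.1 in R 4.3.3, and pandas 2.3.3, numpy 2.4.6 and matplotlib 3.10.9 in Python 3.11.15.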

Additional observations from a re-analysis of the deposited data

Results flagged for a closer look

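MT1B moved in opposite directions with 5-azacytidine in the subpopulations, with log2 ratios of 0.48 ± 0.07 in MG cells and -0.28 ± 0.07 in non-MG cells, both beyond 2 spot errors and both within 1.5-fold. The response in MG cells minus that in non-MG cells was 0.76 ± 0.10 (spot error, 1 array per condition). The difference was not tested, and which MT1 transcripts this probe reads was not examined.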

How the results depend on the processing

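The 4 called ratios stayed past 1.5-fold in the same direction under every other normalization and the deposited table, in 16 of 16 values. The deposited table differs from the scanner values by a constant only, so its values could hardly move. MT2A in MG cells with 5-azacytidine was barely past the limit of 0.585 with normexp, at 0.5889. They ranged from -1.05 to -0.85 for MT1B, from -0.96 to -0.75 for MT1X and from -0.92 to -0.72 for MT2A between the vehicle arrays, and from 0.59 to 0.73 for MT2A in MG cells with 5-azacytidine. Of the single ratios under alternatives, 61 moved by more than the spot error and 99 did not, and no called ratio changed sign. The 99 include the ratios of the deposited table. Of the counts under alternatives, 32 were within 1.5 times the main count and 12 were not. Between the vehicle arrays the count of 3 became 1 at 2-fold (MT1B) and 5 at 1.4-fold. Between the treated arrays the count of 0 became 1 with median centring (MT1E, higher), and 1 without a filter and in the deposited table (MT1G). For 5-azacytidine in MG cells the count of 1 became 3 without a filter (MT1G, MT1H and MT2A), 2 with signals raised to the detection limit, 2 in the deposited table (MT1G and MT2A both times) and 0 at 2-fold. In non-MG cells the count of 0 became 1 without a filter and in the deposited table (MT1G), and 1 at 1.4-fold (MT3). The calls at MT1G and MT1H in these settings use readings not well above background.

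The median between the vehicle arrays was -0.38 with normexp, -0.28 with median centring and -0.37 without a filter. Between the treated arrays it was -0.065 with normexp and 0.024 with median centring. For 5-azacytidine in non-MG cells it was -0.32 with normexp, -0.15 with quantile normalization and -0.32 with median centring. Median centring moved the median of all probes by 0.20, 0.26, -0.04 and -0.10 in the 4 comparisons, in the order of the report. Elsewhere the cause was not tested.

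Leaving out an array was not run, as each condition has 1, and neither was a slide block, as there is 1 slide. No paired analysis was possible because each condition has 1 array and so no replicates to pair. Readings at MT1G and MT1H are limited by signal over background.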
